A study of Mus musculus with 2 samples.

Results

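Primary aortic VSMCs in culture held a small set of cells that carried smooth muscle myosin mRNA and mitotic mRNAs at the same time. These cells were chosen by their own counts: at least 5 UMIs of *Myh11*, the smooth muscle myosin heavy chain, and at least 6 UMIs summed over *Mki67*, *Top2a* and *Cenpf*, which are made in S to M phase (the cycle sum below). A UMI is a molecular tag that marks 1 captured mRNA molecule. There were 468 such cells among 11690 cells that passed filters of 300 or more genes, 3000 or more UMIs and less than 20% mitochondrial UMIs, 162 of 4866 in replicate 1 and 306 of 6824 in replicate 2. They are called cycling *Myh11*-high cells or members here, where cycling refers to mRNA counts and not to a measured division. The 2 libraries, made with the 3' v3 chemistry of 10x Genomics, were biological replicates of 1 condition, wild type mouse VSMCs after 5 days in culture in full medium, and by the study's methods a preparation pools the thoracic aortas of several mice. There was no treatment, and the age of these mice is not given in the sources used here. The libraries held 127949633 and 132561822 UMIs, and 9 barcodes were found among the cells of both, 0.185% and 0.132% of them. Of the members, 123 of 162 in replicate 1 had at least 3 UMIs of Y-linked genes and 0 had as many of *Xist*, whereas in replicate 2 288 of 306 had as many of *Xist* and 0 of Y-linked genes, so that replicate and sex cannot be told apart.

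In the vessel wall, contractile VSMCs express an apparatus of actin, myosin and their regulators under control of the factor SRF with its coactivator myocardin, and they rarely divide. In culture and in atherosclerotic lesions, they lose this apparatus, produce matrix and re-enter the cell cycle, a change known as phenotypic modulation. Loss of contractile mRNAs and division are often described together, so that cells with both sets of mRNAs bear on how closely these properties are linked. The comparison sets were taken from the same libraries. Non-cycling *Myh11*-high cells had the same *Myh11* minimum and a cycle sum under 3 (289 and 517 cells), cycling *Myh11*-low cells had at most 1 UMI of *Myh11* and a cycle sum of at least 6 (1200 and 1230 cells), and non-cycling *Myh11*-low cells had neither (2607 and 3971 cells). Since the sets were defined on these mRNAs, the levels of *Myh11*, *Mki67*, *Top2a* and *Cenpf* are descriptions and were not tested.

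The values that chose the cells were distributed as follows and, being the rule's own, are no check of the label. Cycling *Myh11*-high cells had a median of 13 UMIs of *Myh11* in replicate 1 (lowest 5, highest 67) and of 9 in replicate 2 (lowest 5, highest 52). Non-cycling *Myh11*-high cells had medians of 11 and 10. The cycle sum had a median of 37 (6 to 194) and of 25 (6 to 159), against medians of 35 and 23 in cycling *Myh11*-low cells. Most members were therefore far above the minimum for the cycle sum, whereas many were close to the minimum for *Myh11*. The 15 and 46 cells with exactly 5 UMIs of *Myh11* had *Acta2* at 9929 and 7739 CPM (the UMIs of a gene scaled to the total of the set), and the 26 and 38 cells just outside, with 4 UMIs and the same minimum of the cycle sum, had 7212 and 5759 CPM. At the other border, the 4 and 10 cells with a cycle sum of 6 had *Ccnb1* at 0 and 23.01 CPM, and the 4 and 21 cells with a sum of 5 had 19.02 and 26.87 CPM. Over wider bands, the 17 and 31 members with a sum of 6 to 8 had *Ccnb1* at 31.8 and 36.8 CPM, and the 26 and 59 cells with a sum of 3 to 5 had 18.0 and 21.5 CPM.

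Of all *Myh11*-high cells, 34.0% (29.7 to 38.4%) in replicate 1 and 34.7% (31.6 to 37.9%) in replicate 2 were members, with exact 95% binomial intervals that cover counting error only. Members were 3.33% (2.84 to 3.87%) and 4.48% (4.01 to 5.00%) of all cells. Of *Myh11*-low cells, 29.6% (28.2 to 31.1%) and 22.4% (21.3 to 23.5%) had a cycle sum of at least 6. The minimums were on raw UMIs, and depth differed between the sets. With the same thresholds on UMIs per 20000 UMIs of the cell, the share was 28.6% (24.4 to 33.1%) and 29.0% (26.0 to 32.2%) in *Myh11*-high cells and 30.5% (29.0 to 31.9%) and 24.3% (23.1 to 25.5%) in *Myh11*-low cells. The direction of the difference thus turned in replicate 1 and stayed in replicate 2, and with 2 libraries it was not tested.

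**Figure D1:**
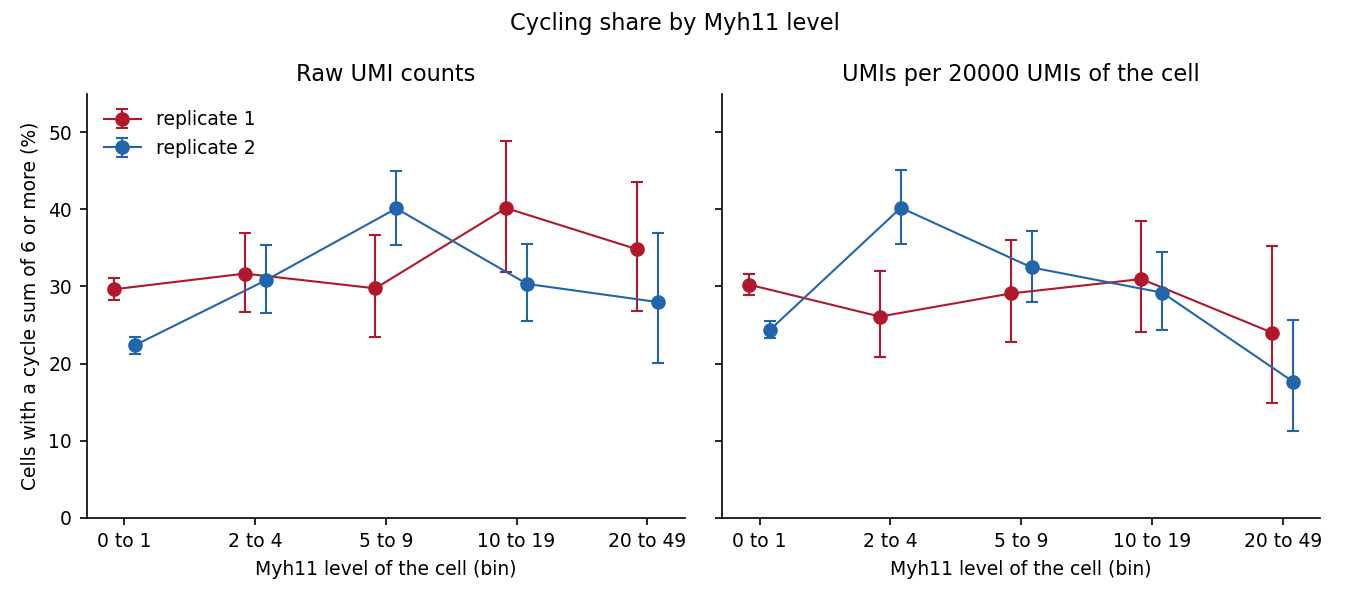
Share of cells with a cycle sum of at least 6 (%, y axis) in bins of the *Myh11* level (x axis), from raw UMIs (left) and per 20000 UMIs of the cell (right), with exact 95% binomial intervals. At 20 to 49 *Myh11* UMIs per 20000 the share was 24% in replicate 1 and 17.6% in replicate 2, and bins of 50 or more, with at most 10 cells, are not drawn.

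By bins of raw *Myh11* UMIs, the cycling share in replicate 1 ran from 29.7% at 5 to 9 UMIs over 40.1% at 10 to 19 to 34.8% at 20 to 49 UMIs. In replicate 2 these bins held 40.1%, 30.3% and 28.0%. The order of the bins differed between the libraries, and most intervals overlapped in the plot of the cycling share by *Myh11* level. Scaled to depth, the bin of 20 to 49 UMIs had 18 of 75 cells cycling in replicate 1 (24%, 14.9 to 35.3%) and 21 of 119 in replicate 2 (17.6%, 11.3 to 25.7%). Above 50 scaled UMIs, 0 of 5 cells in either library were cycling, which allows a share of up to 52.2%.

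Members had more UMIs than non-cycling *Myh11*-high cells and than cycling *Myh11*-low cells, but fewer than the sum of both. Their median was 32855.5 UMIs in replicate 1 and 24640.5 in replicate 2, against 23776 and 18405 in non-cycling *Myh11*-high cells and 28112.5 and 19729 in cycling *Myh11*-low cells. Cycling went with a similar gain in *Myh11*-low cells: the ratio of cycling to non-cycling medians was 1.38 and 1.34 at high *Myh11* and 1.43 and 1.37 at low *Myh11*. The medians of the sets that a doublet could combine summed to 51888.5 and 38134 UMIs, and the members' medians were 0.633 and 0.646 of that sum. Of the members, 15 and 23 cells were above it. No member had at least 3 UMIs of both *Xist* and Y-linked genes, but each library was of a single sex, so that this does not count doublets. No doublet caller was run here, and a doublet step by the authors before deposit is not given in the sources used here.

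**Figure D2:**
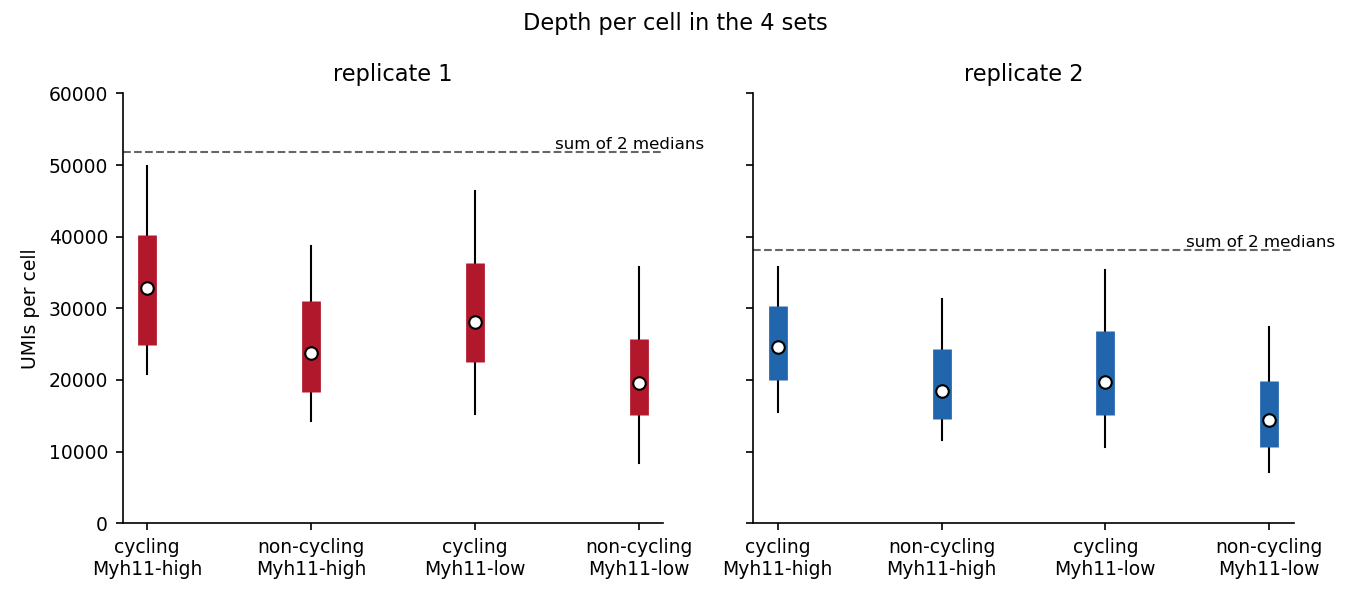
UMIs per cell (y axis) in the 4 sets of cells of each replicate. Points are medians, thick bars the middle 50% and thin lines the 10th to 90th percentile, and the dashed line is the sum of the medians of non-cycling *Myh11*-high and cycling *Myh11*-low cells (51888.5 and 38134), which lies above the 90th percentile of the members in both replicates.

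In contractile mRNAs, cycling *Myh11*-high cells were closer to non-cycling *Myh11*-high cells than to cycling *Myh11*-low cells. The first 2 sets were chosen by the same minimum of *Myh11*, which sets part of this likeness, so that it is a description. *Acta2*, smooth muscle α-actin, was at 12747 CPM in the members of replicate 1 and at 11354 CPM in those of replicate 2, against 15442 and 16218 CPM in non-cycling *Myh11*-high cells and 3780 and 2071 CPM in cycling *Myh11*-low cells. Both members' sums were thus below both non-cycling sums and above both *Myh11*-low sums. *Tagln*, encoding the actin-binding protein SM22α, was at 6352 and 6197 CPM, against 7529 and 9212 CPM and against 1922 and 1057 CPM. *Cnn1*, calponin, which damps the myosin ATPase, was at 515 and 266 CPM, against 670 and 426 CPM and against 86.1 and 8.57 CPM. In a fit across 13383 genes with edgeR on counts summed per library and set (n = 2 libraries), the log2 difference between members and non-cycling *Myh11*-high cells was -0.49 ± 0.36 for *Acta2* (SE, adjusted p = 0.579), -0.52 ± 0.37 for *Tagln* (adjusted p = 0.576) and -0.59 ± 1.23 for *Cnn1* (adjusted p = 0.888). None of these passed the test at an adjusted p of 0.05.

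Over the list of 30 contractile genes, 29 had a fitted difference below 0 against non-cycling *Myh11*-high cells and 26 were lower in both libraries, but 0 were called, beside 5.01% of all genes called higher and 0.426% called lower in this comparison. The median difference of the list was -0.50 on the log2 scale, against -0.06 for all genes tested. *Smtn*, smoothelin, was the exception, at 165 and 160 CPM in members and 121 and 120 CPM in non-cycling *Myh11*-high cells (log2 difference 0.33 ± 0.18, adjusted p = 0.438). With the library as a block in the fit, 10% of genes were called higher and 7.3% lower, and 7 contractile genes were called lower (among them *Flna*, *Nexn*, *Cald1*, *Pdlim3*, *Vcl* and *Tpm1*, named after their values were seen). Of the named genes, the highest in CPM in the members was *Cald1*, caldesmon, an actin-binding brake of myosin, at 3147 and 1947 CPM against 3606 and 2548 CPM (-0.40, adjusted p = 0.0132 with the block). With the gate per 20000 UMIs, the median of the list was -0.39 and 26 of 30 genes were below 0. The summed level of the list was 34591 and 28820 CPM in members, 41884 and 40546 CPM in non-cycling *Myh11*-high cells and 13804 and 7812 CPM in cycling *Myh11*-low cells.

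**Figure D3:**
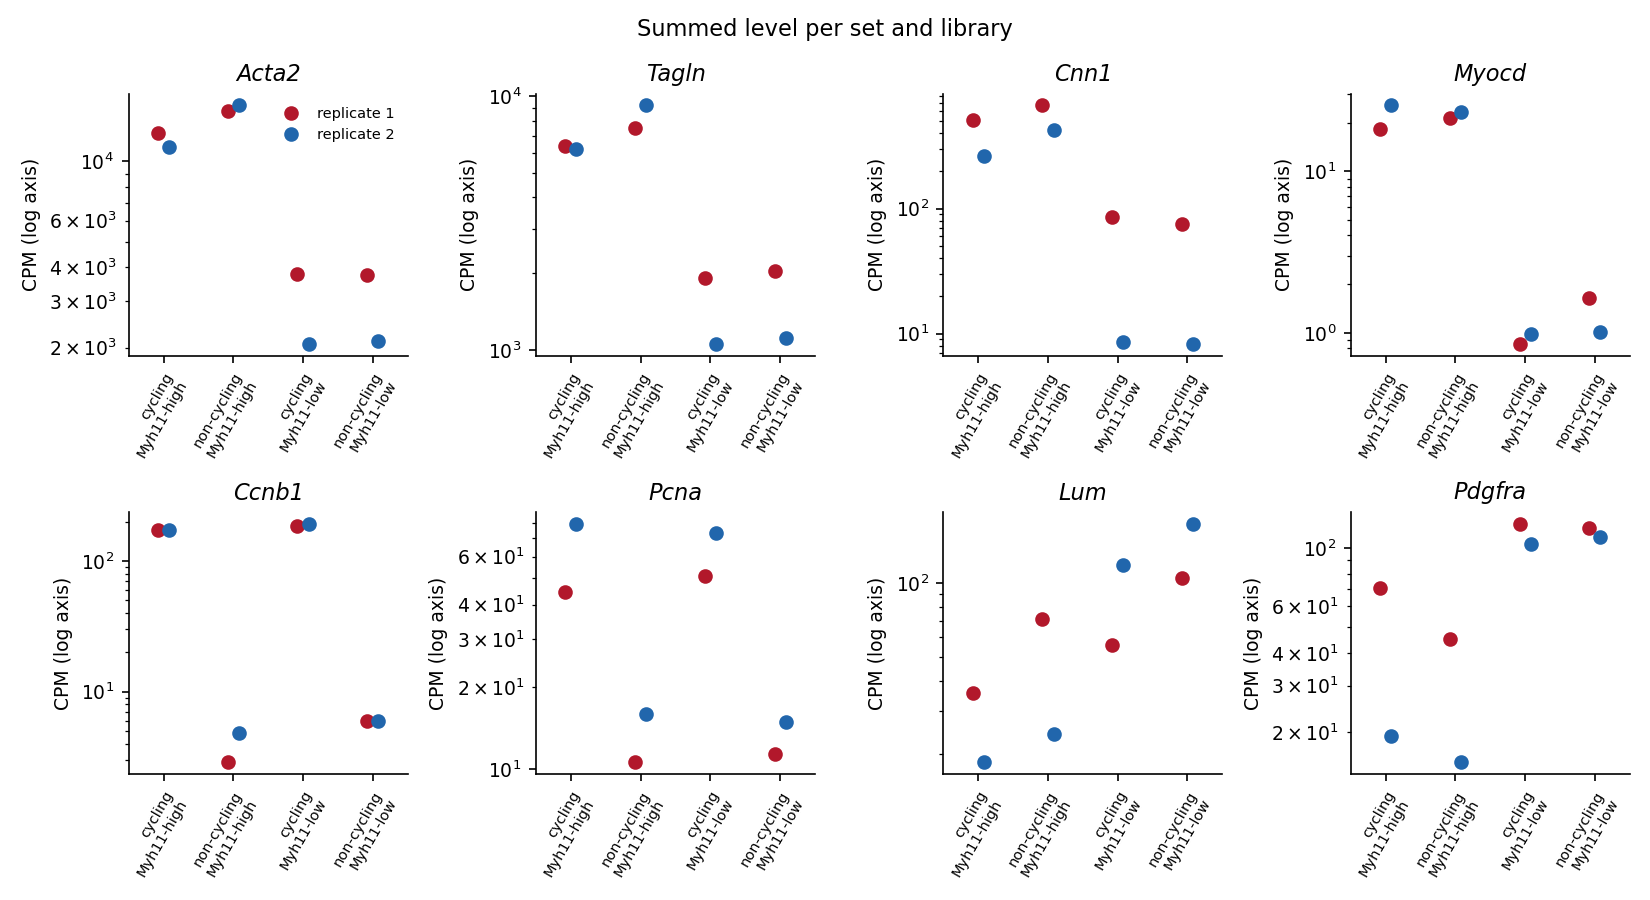
Level (CPM of the summed counts, log axis) of 8 mRNAs in the 4 sets of cells, 1 point for each replicate. The cycling *Myh11*-high cells are near the other *Myh11*-high cells for *Acta2*, *Tagln*, *Cnn1* and *Myocd* and near the other cycling cells for *Ccnb1* and *Pcna*, whereas *Lum* and *Pdgfra* differ between the replicates (35.5 and 18.6 CPM of *Lum* in the members).

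The mitotic mRNAs of the members were near the level of other cycling cells, a set chosen by the same minimum of the cycle sum. This shared choice sets part of the likeness. *Ccnb1*, cyclin B1, which drives entry into mitosis, was at 174 and 172 CPM in members and at 185 and 192 CPM in cycling *Myh11*-low cells, a log2 difference of -0.11 ± 0.18 (edgeR, adjusted p = 0.836). In non-cycling *Myh11*-high cells it was at 2.89 and 4.83 CPM. *Pcna*, the DNA polymerase clamp of S phase, was at 44.4 and 79.1 CPM in members and at 50.9 and 73.1 CPM in cycling *Myh11*-low cells (0.01 ± 0.33, adjusted p = 0.995). Of the 30 G2/M genes and the 30 S phase genes, 0 were called against cycling *Myh11*-low cells, where 1.4% of all genes were called higher and 0.291% lower. A count of 0 is close to these shares and does not set the lists apart from other genes. The medians were -0.10 for G2/M and -0.03 for S phase, against -0.07 for all genes, and the sign of the S phase median varied with the settings (-0.06 to 0.06 with both libraries). With the block, which called 8.31% of genes higher and 8.59% lower here, *Bub1b* of the spindle checkpoint was lower (-0.43, adjusted p = 0.0332) and the cytokinesis gene *Anln* was higher (0.43, adjusted p = 0.0373), and no S phase gene was called. With a stricter gate (*Myh11* at least 10 and cycle sum at least 12) and no block, 1 G2/M gene was called higher and no S phase gene was called. Of 10 S phase histone genes, 0 were called without the block and 2 with it, the linker histone *Hist1h1b* lower (-0.48, adjusted p = 0.0379) and *Hist1h2bc* higher (0.94, adjusted p = 0.000734). These genes were named because they are the counts called.

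Against non-cycling *Myh11*-high cells, all 30 G2/M genes and 29 of 30 S phase genes passed the threshold upwards, with medians of 5.29 and 2.56 on the log2 scale, and 8 of 10 histone genes did. *Hist1h2bc* of the histone list was below 0 (-1.20 ± 0.34, adjusted p = 0.12, and 9.65e-05 with the block). The upward direction of the lists is set by the choice of the cells and is given as a description. The genes with the largest change were *Kif14*, *Depdc1a*, *Kif18b*, *Kif2c* and *Kif11*, of which all but *Depdc1a* encode kinesins. *Kif11*, which slides spindle microtubules apart, was at 109 and 130 CPM in members and at 0.824 and 1.35 CPM in non-cycling *Myh11*-high cells. *Ccna2*, cyclin A2, was at 144 and 188 CPM against 1.37 and 1.93 CPM, and *Rrm2*, a subunit of the ribonucleotide reductase that supplies deoxynucleotides, was at 127 and 134 CPM against 6.73 and 9.46 CPM. In all these examples the sums of the members were above both non-cycling sums.

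Promoters of both gene groups are shown because the members express both. The sequences are those before the RefSeq start site (build GRCm38.p6), and they end where the GENCODE M21 gene model begins if that lies further upstream. Capitals mark the CArG box, the site of SRF, in *Myl9*, and the CHR element (TTTGAA or TTCGAA) and the CCAAT box, both known from mitotic promoters, in *Ccnb2* and *Cdk1*. All motifs were searched on both strands, so that a CCAAT box on the other strand reads ATTGG, and they did not overlap in these stretches.
Myl9 (chr2:156775214-156775419, plus strand): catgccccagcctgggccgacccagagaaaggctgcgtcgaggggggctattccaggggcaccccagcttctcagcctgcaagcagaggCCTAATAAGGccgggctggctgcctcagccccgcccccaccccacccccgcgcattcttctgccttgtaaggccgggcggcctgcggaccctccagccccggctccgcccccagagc
Ccnb2 (chr9:70421555-70421804, minus strand): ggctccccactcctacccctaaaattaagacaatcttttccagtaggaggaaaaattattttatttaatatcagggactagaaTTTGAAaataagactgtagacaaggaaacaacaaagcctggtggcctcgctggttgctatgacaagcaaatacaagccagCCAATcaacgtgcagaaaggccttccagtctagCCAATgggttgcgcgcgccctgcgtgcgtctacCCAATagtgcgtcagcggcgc
Cdk1 (chr10:69352939-69353162, minus strand): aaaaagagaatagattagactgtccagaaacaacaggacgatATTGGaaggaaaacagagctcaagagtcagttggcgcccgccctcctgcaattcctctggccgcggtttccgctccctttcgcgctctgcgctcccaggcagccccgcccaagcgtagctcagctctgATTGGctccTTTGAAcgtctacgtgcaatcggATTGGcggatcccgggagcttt

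*Myl9*, the regulatory light chain of smooth muscle myosin, was at 1565 and 1390 CPM in members, 1822 and 1907 CPM in non-cycling *Myh11*-high cells and 575 and 284 CPM in cycling *Myh11*-low cells. *Cdk1*, the kinase of cyclin B, was at 261 and 396 CPM in members, 8.79 and 10.2 CPM in non-cycling *Myh11*-high cells and 305 and 391 CPM in cycling *Myh11*-low cells. *Ccnb2*, cyclin B2, was at 81.2 and 79.0 CPM in members, 10.99 and 14.5 CPM in non-cycling *Myh11*-high cells and 94.3 and 89.4 CPM in cycling *Myh11*-low cells. *Myl9* thus followed the *Myh11*-high state and *Cdk1* and *Ccnb2* the cycling state, which the choice of the cells by *Myh11* and the cycle sum sets in part. In the 250 bases before the start, 22 of 26 promoters of 24 G2/M genes held a CCAAT box (84.6%, against 33.8% of all 32851 promoters given) and 11 held a CHR element (42.3%, against 17.1%). A CArG box was found in 4 of 31 promoters of 25 contractile genes (12.9%, against 1.47% of all promoters) and in 0 of the 26 G2/M promoters. The other 5 contractile and 6 G2/M genes had no entry under their symbol, and such matches are descriptions of letters only.

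Across genes, the change with cycling at high *Myh11* was set beside that at low *Myh11*. Between the log2 differences of cycling and non-cycling cells at high *Myh11* and at low *Myh11*, which share no sums of counts, Pearson's r across genes was 0.969 for 7880 genes with a mean of at least 10 CPM and 0.779 for all 13383 genes (Spearman's rho 0.854 and 0.68). Genes are not independent replicates, and sums of the same library share a culture. Both differences split the cells by the same cycle sum, so that cycle genes are raised in both by the choice of the cells. The G2/M medians were 5.29 at high and 5.09 at low *Myh11*, and the S phase medians were 2.56 and 2.67. The correlation is therefore a description, and it was not computed without the cycle genes. In edgeR, 0 genes (0%) were called for the difference between the effects, where 124 genes had an unadjusted p under 0.05, 62 in each direction. DESeq2 called 1 gene, the helicase gene *Brip1*, at 27.7 and 34.9 CPM in members and 9.34 and 13.8 CPM in non-cycling *Myh11*-high cells, against 32.2 and 39.5 CPM and 3.56 and 3.23 CPM at low *Myh11*. It was named because it is this count. For *Ccnb1* the difference of the effects was 0.40 ± 0.27, for *Acta2* -0.47 ± 0.51 and for *Tagln* -0.41 ± 0.53 (adjusted p = 0.9999 for each). For the contractile list, the median change with cycling was -0.50 at high *Myh11* and -0.06 at low *Myh11*, and 27 of 30 differences of the effects were below 0, with a median of -0.36 and 0 called. For the G2/M list 20 of 30 were above 0 (median 0.35) and for the S phase list 18 of 30 were below 0 (median -0.16), with 0 called in either, beside a median of -0.05 for all genes.

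**Figure D4:**
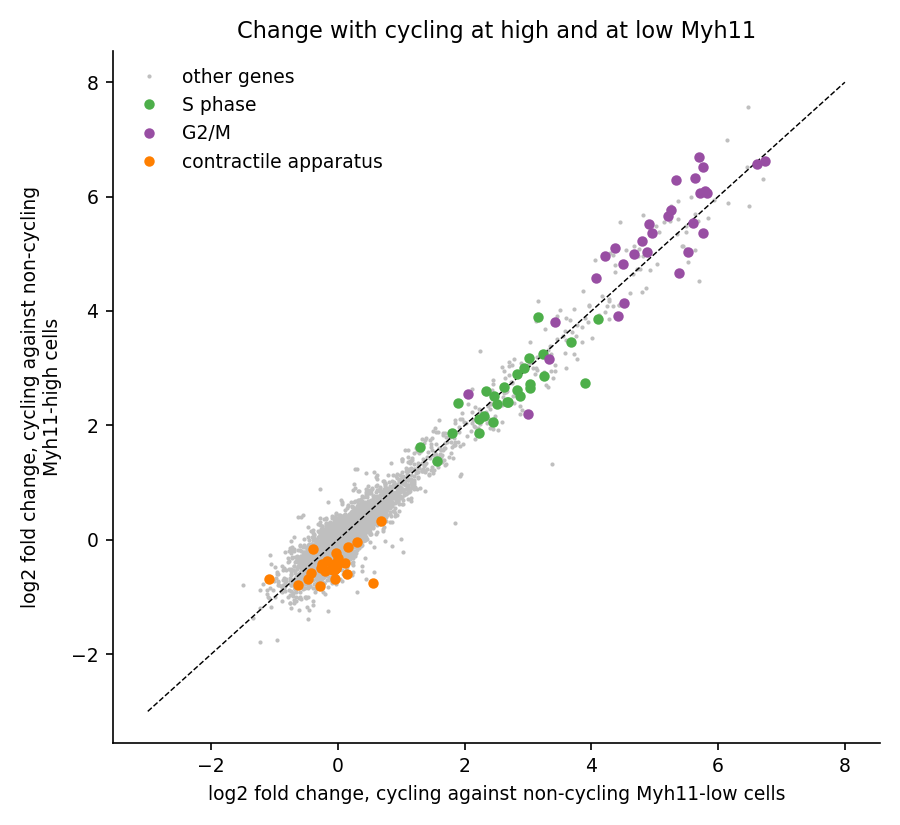
Fitted log2 fold change between cycling and non-cycling cells at high *Myh11* (y axis) and at low *Myh11* (x axis) for genes with a mean of at least 10 CPM, 1 point for each gene, with the line of equality dashed. Over all 7880 genes shown r was 0.969, and both axes split the cells by the same cycle sum. The median difference of the effects (y minus x), over all 30 genes of each list, is 0.35 for G2/M, -0.16 for S phase and -0.36 for the contractile list. List genes with a mean under 10 CPM, among them *Casq2* and *Cacna1c* of the contractile list, are not drawn.

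A list of CDK inhibitors, RB-like pocket proteins and p53 targets was examined, because inhibitors are known to hold differentiated cells out of the cycle. Of its 16 genes, 3 were called higher in members than in non-cycling *Myh11*-high cells and 0 lower, beside 5.01% and 0.426% of all genes. These sets were split by the cycle sum, so that the direction of genes that rise with cycling is set in part by this choice. *Cdkn2c*, an inhibitor of CDK4 and CDK6, was at 71.0 and 102 CPM against 9.48 and 6.95 CPM (3.31 ± 0.25, adjusted p = 0.000774), and its relative *Cdkn2d* was at 117 and 166 CPM against 14.0 and 15.4 CPM (3.17 ± 0.24, adjusted p = 0.000777). *Rbl1*, the RB-like protein p107, was at 21.3 and 25.9 CPM against 2.47 and 2.61 CPM (3.11 ± 0.28, adjusted p = 0.00139). All 3 were also high in cycling *Myh11*-low cells, where *Cdkn2c* was at 73.2 and 84.5 CPM. Between the 2 cycling sets, 0 of 16 were called, beside 1.4% of all genes called higher and 0.291% lower. With the block, 4 were higher and 3 lower than in non-cycling *Myh11*-high cells (10% and 7.3% of all genes). Among the lower ones was *Cdkn2b*, the TGF-β target p15, at 25.04 and 30.9 CPM against 54.0 and 51.1 CPM (-1.03, adjusted p = 0.0318). The block called 1 higher and 4 lower than in cycling *Myh11*-low cells (8.31% and 8.59% of all genes), led by the growth arrest gene *Gas1* (-1.31, adjusted p = 0.00489). *Cdkn1a*, the inhibitor p21, was at 260 and 439 CPM in members and at 288 and 291 CPM in non-cycling *Myh11*-high cells, so that its direction differed between the libraries (0.17 ± 0.25, adjusted p = 0.825). *Cdkn1c*, p57, was at 2.66 and 3.08 CPM against 3.98 and 3.96 CPM (-0.56 ± 0.21, adjusted p = 0.297). Of 10 genes of D cyclins and early growth response, 0 were called in either comparison, which is close to the shares of all genes given above. With the block, *Cdk4*, the partner of D cyclins, was higher (0.55, adjusted p = 0.00532) and *Ccnd2*, cyclin D2, and *Ier3*, an immediate early gene, were lower (-0.48, adjusted p = 0.00172, and -0.54, adjusted p = 0.0031) than in non-cycling *Myh11*-high cells. Against cycling *Myh11*-low cells, the block called 1 of these 10 genes higher and 5 lower, beside 8.31% and 8.59% of all genes. The higher one was *Ccnd3*, cyclin D3 (0.62, adjusted p = 0.0214), and among the lower ones were *Ccnd1*, cyclin D1 (-0.79, adjusted p = 0.0124), and *Egr1* (-0.73, adjusted p = 0.00937). The genes called with the block were named after their values were seen.

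Fewer genes were lower than higher in members against non-cycling *Myh11*-high cells, 57 against 670. With the block 977 were lower and 1341 higher, and with DESeq2 150 and 863. Without TMM 25 were lower and 818 higher, and without the filter on low counts 27 and 649. The 57 genes were led by *Rasl12*, a Ras-like GTPase, at 13.9 and 10.1 CPM against 26.5 and 25.9 CPM (-1.23 ± 0.25, adjusted p = 0.041), *Mccc1*, a subunit of an enzyme of leucine breakdown (-1.11 ± 0.17, adjusted p = 0.0155), *Rmdn1* (-1.08 ± 0.22, adjusted p = 0.0428), *Btc*, the EGF receptor ligand betacellulin (-1.04 ± 0.19, adjusted p = 0.0323), and *Mapre3*, which binds growing microtubule ends (-1.01 ± 0.20, adjusted p = 0.0428). *Rasl12* lost the call under 3 alternatives, among them the gate per 20000 UMIs (adjusted p = 0.096), and *Rmdn1*, *Btc* and *Mapre3* each lost it under at least 1. For *Rasl12*, members were still above cycling *Myh11*-low cells, at 3.09 and 2.18 CPM, whereas *Mccc1* was at 5.33 and 5.26 CPM in members, 11.5 and 9.85 CPM in non-cycling *Myh11*-high cells and 9.36 and 9.02 CPM in cycling *Myh11*-low cells.

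Against cycling *Myh11*-low cells, the members had the contractile apparatus, which follows from the choice by *Myh11*: 29 of 30 genes were higher, with a median of 1.75, 7 past the threshold and 27 with the block. Of all genes, 1.4% were called higher without the block and 8.31% with it. *Acta2* was 2.05 ± 0.37 higher on the log2 scale (adjusted p = 0.0585) and past the threshold with the block (2.11, adjusted p = 0.00288), as were *Tagln* (2.14, adjusted p = 0.00626) and *Cnn1* (3.64, adjusted p = 0.0219). The leading genes were *Kcnmb1*, the β1 subunit of the calcium-activated potassium channel of smooth muscle, at 51.3 and 58.5 CPM against 0.249 and 1.17 CPM (6.36 ± 0.77, adjusted p = 0.0178), the receptor tyrosine phosphatase *Ptprz1* (6.13 ± 0.96, adjusted p = 0.0388), the calcium-binding *Efhd1* (6.08 ± 0.43, adjusted p = 0.00358), the actin-binding *Xirp1* (6.07 ± 0.44, adjusted p = 0.0036) and *Klhl30* (6.02 ± 0.76, adjusted p = 0.019). The sizes of these 5 differences varied between the libraries, and the genes were close to 0 in cycling *Myh11*-low cells. They were 7.31 and 5.58 for *Kcnmb1*, 7.73 and 5.38 for *Ptprz1*, 6.34 and 5.34 for *Efhd1*, 6.45 and 5.07 for *Xirp1* and 6.04 and 4.89 for *Klhl30* in replicates 1 and 2. *Ppp1r14a*, the inhibitor CPI-17 of myosin phosphatase, was at 109 and 119 CPM against 9.94 and 6.99 CPM. In non-cycling *Myh11*-high cells it was at 154 and 217 CPM. *Kcnmb1*, in contrast, was at 47.7 and 64.7 CPM there, so that the members were between these values.

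The transcription factors of the contractile state divided into few that differed and many that did not pass the test. The cycling sets were split by *Myh11*, so that differences in genes that go with it are set in part by this choice. Of 26 tested genes of smooth muscle transcription, 1 was called higher and 1 lower than in cycling *Myh11*-low cells, beside 1.4% and 0.291% of all genes, and 5 higher and 5 lower with the block, beside 8.31% and 8.59%. *Myocd*, myocardin, was at 18.1 and 25.5 CPM in members, 21.3 and 23.3 CPM in non-cycling *Myh11*-high cells and 0.856 and 0.977 CPM in cycling *Myh11*-low cells (4.59 ± 0.33 between the cycling sets, adjusted p = 0.0036). *Klf4*, a factor known to oppose the contractile program, was at 103 and 95.9 CPM in members, 117 and 95.8 CPM in non-cycling *Myh11*-high cells and 175 and 188 CPM in cycling *Myh11*-low cells (-0.85 ± 0.13, adjusted p = 0.0337). *Srf*, the partner of myocardin, was at 34.1 and 26.9 CPM in members and at 37.8 and 27.1 CPM in cycling *Myh11*-low cells (-0.08 ± 0.31, adjusted p = 0.943). For *Myocd*, the members and the non-cycling *Myh11*-high cells overlapped (-0.13 ± 0.28, adjusted p = 0.894), and the sign of this difference turned with the stricter gate and with the gate per 20000 UMIs.

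Of 19 tested genes of mitogen signalling, 2 were called higher than in cycling *Myh11*-low cells and 0 lower (1.4% and 0.291% of all genes), and 6 and 3 with the block (8.31% and 8.59% of all genes). *Hbegf*, an EGF receptor ligand, was at 279 and 171 CPM in members against 39.1 and 37.6 CPM (2.57 ± 0.40, adjusted p = 0.0366), and *Pdgfa*, a ligand of the PDGF α-receptor, was at 163 and 192 CPM against 48.3 and 67.8 CPM (1.63 ± 0.18, adjusted p = 0.0143). In non-cycling *Myh11*-high cells, *Hbegf* was at 231 and 155 CPM and *Pdgfa* at 190 and 204 CPM. Between the 2 *Myh11*-high sets, 0 genes of the list were called (5.01% of all genes higher, 0.426% lower). With the block, 5 were lower and 0 higher, beside 7.3% and 10% of all genes. *Cspg4*, the proteoglycan NG2 of mural cells, was at 118 and 113 CPM in members against 30.9 and 39.1 CPM in cycling *Myh11*-low cells (1.74 ± 0.15, adjusted p = 0.0067). Members and cycling *Myh11*-low cells were split by *Myh11*, which may set part of the differences between them. Of the genes called lower than in cycling *Myh11*-low cells, *Serpinb1a*, an inhibitor of neutrophil proteases, was at 102 and 121 CPM against 431 and 436 CPM (-1.94 ± 0.13, adjusted p = 0.0029). *Rab7b*, a GTPase of endosomal transport (-2.06 ± 0.27, adjusted p = 0.0206), *Mettl7a1* (-1.72 ± 0.11, adjusted p = 0.0029) and the adhesion molecule *Flrt2* (-1.59 ± 0.24, adjusted p = 0.0337) were other leading genes in this direction. All 4 were below the cycling *Myh11*-low level in non-cycling *Myh11*-high cells too. *Serpinb1a* was also lower in members than in the latter, where it was at 168 and 149 CPM (-0.61 ± 0.12, adjusted p = 0.043).

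In the cGMP pathway, which relaxes smooth muscle, 1 of 14 tested genes was called between members and cycling *Myh11*-low cells (1.4% of all genes higher, 0.291% lower), and 7 with the library as a block (8.31% and 8.59%). *Npr1* encodes GC-A, the receptor of atrial natriuretic peptide, and was at 8.88 and 4.10 CPM in members, 9.21 and 8.69 CPM in non-cycling *Myh11*-high cells and 0.718 and 0.864 CPM in cycling *Myh11*-low cells. It was higher in members than in the latter (3.03 ± 0.40, adjusted p = 0.0212), and it was the 1 gene called there without the block. The choice by *Myh11* may set part of this difference. *Npr2* encodes GC-B, the receptor of C-type natriuretic peptide, and was at 23.98 and 34.1 CPM in members, 23.4 and 34.4 CPM in non-cycling *Myh11*-high cells and 39.4 and 54.6 CPM in cycling *Myh11*-low cells (-0.67 ± 0.29, adjusted p = 0.336). With the block, 6 genes were called higher and 1 lower. *Npr2* was the lower one (-0.68, adjusted p = 0.00262), and among the others were the subunits of the NO-sensitive guanylyl cyclase *Gucy1a1* (1.82, adjusted p = 0.00648) and *Gucy1b1* (1.65, adjusted p = 0.0132) and the cGMP-dependent kinase gene *Prkg1* (0.46, adjusted p = 0.034). *Gucy1a1* was at 48.3 and 99.0 CPM in members against 16.9 and 24.7 CPM in cycling *Myh11*-low cells. Between the *Myh11*-high sets, 0 of 14 genes were called (5.01% of all genes higher, 0.426% lower), and with the block 1 was lower, beside 7.3% of all genes. Of 18 tested genes of calcium handling and excitability, 0 were called against cycling *Myh11*-low cells, and 15 had a difference above 0 (median 0.48, 7 called higher with the block).

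Of 20 markers of modulated VSMCs, 17 had a fitted difference below 0 against non-cycling *Myh11*-high cells, 16 of them lower in both libraries, with a median of -0.25 beside -0.06 for all genes. Against cycling *Myh11*-low cells, 7 were above and 13 below 0, with a median of -0.16 beside -0.07. *Lum*, lumican of the collagen matrix, was at 35.5 and 18.6 CPM in members, 71.2 and 24.2 CPM in non-cycling *Myh11*-high cells and 55.9 and 118 CPM in cycling *Myh11*-low cells. The difference between the cycling sets was -1.67 ± 0.63 (adjusted p = 0.281), with -0.65 in replicate 1 and -2.64 in replicate 2. *Pdgfra*, the PDGF α-receptor, was at 70.3 and 19.2 CPM in members, 45.1 and 15.4 CPM in non-cycling *Myh11*-high cells and 124 and 104 CPM in cycling *Myh11*-low cells (-1.34 ± 0.67, adjusted p = 0.415). None of the list was called in either comparison. Of all genes, 5.01% were called higher and 0.426% lower than in non-cycling *Myh11*-high cells. Against cycling *Myh11*-low cells these shares were 1.4% and 0.291%. A count of 0 is close to these shares and does not set the list apart from other genes. With the block, 5 were lower and 0 higher than in non-cycling *Myh11*-high cells (7.3% and 10% of all genes). Against cycling *Myh11*-low cells, where the block called 8.31% of all genes higher and 8.59% lower, it called 4 higher, *Spp1*, osteopontin (1.57, adjusted p = 0.030), *Lgals3*, galectin 3 (1.10, adjusted p = 0.00102), *Postn*, periostin (1.23, adjusted p = 0.00262), and *Vim*, vimentin (0.48, adjusted p = 0.00179). It called 4 lower, *Ly6a*, which encodes Sca1 (-2.49, adjusted p = 0.00157), *Timp1*, *Fbln2* and *S100a4*. *Ly6a* was at 75.5 and 38.3 CPM in members and at 352 and 265 CPM in cycling *Myh11*-low cells, and *Spp1* was at 436 and 138 CPM against 95.3 and 75.9 CPM. In UMIs per cell, members had 2.44 and 0.490 of *Pdgfra*, non-cycling *Myh11*-high cells 1.13 and 0.308, and cycling *Myh11*-low cells 3.73 and 2.24. For *Dcn*, decorin, these values were 5.23 and 1.87 in members, 5.46 and 1.61 in non-cycling *Myh11*-high cells and 8.75 and 10.8 in cycling *Myh11*-low cells. In replicate 2, members were thus close to the other *Myh11*-high cells for both genes, and in replicate 1 they were in between for *Pdgfra*.

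A droplet with 1 cell of each kind would hold diluted levels of both programs, so the members were set beside that sum. It was computed for each gene and library from 1 mean non-cycling *Myh11*-high cell and 1 mean cycling *Myh11*-low cell, as CPM of their summed UMIs. *Ccnb1* was at 174 and 172 CPM in members, and the sum would give 102 CPM in both libraries. *Acta2* was at 12747 and 11354 CPM, against 9085 and 8872 CPM in the sum. *Kcnmb1* was at 51.3 and 58.5 CPM, against 21.8 and 31.7 CPM, and *Myocd* was at 18.1 and 25.5 CPM, against 10.2 and 11.7 CPM. *Npr1* was above the sum in replicate 1 (8.88 against 4.58 CPM) and below it in replicate 2 (4.10 against 4.63 CPM). *Serpinb1a* was at 102 and 121 CPM, against 311 and 298 CPM in the sum. Of these genes, those of both programs other than *Npr1* were above the sum in both libraries, and *Serpinb1a*, higher in *Myh11*-low cells, was below it.

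**Figure D5:**
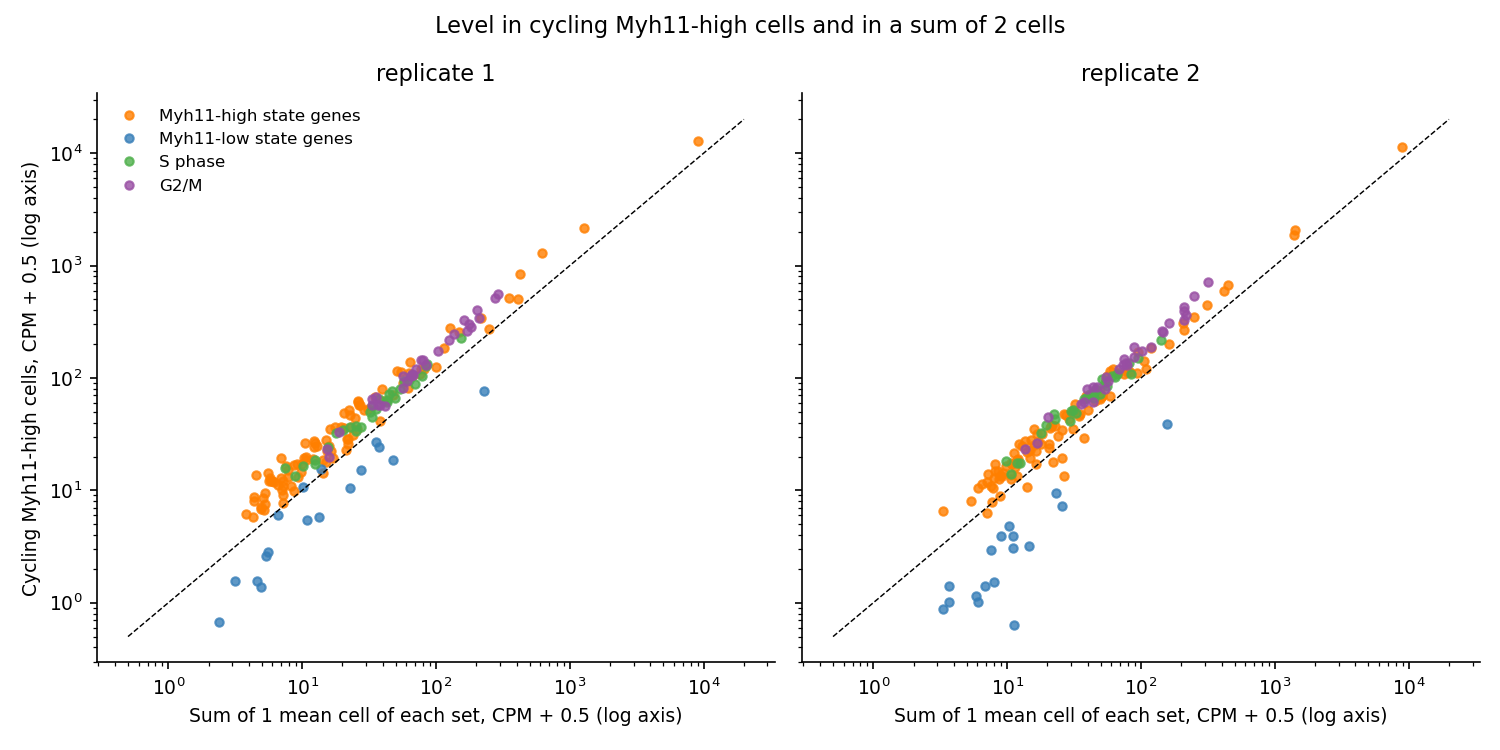
Level in cycling *Myh11*-high cells (y axis) and in the sum of 1 mean non-cycling *Myh11*-high and 1 mean cycling *Myh11*-low cell (x axis), as CPM + 0.5 on log axes, 1 point for each gene, with the line of equality dashed. All 30 G2/M and all 30 S phase genes lie above the line in both replicates, 100 and 94 of 100 *Myh11*-high state genes lie above it, and 15 and 17 of 17 *Myh11*-low state genes lie below it.

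The same was seen over wider gene groups. The state genes among them were defined without the members and without any cycling cell. They are not independent of the comparison, since the non-cycling *Myh11*-high cells that defined them also enter the sum. They also share genes with the contractile list, such as *Acta2* and *Cnn1*. State genes were those with a log2 difference of at least 2 between non-cycling *Myh11*-high and non-cycling *Myh11*-low cells in both libraries (0.5 CPM added) and a mean of at least 10 CPM in the higher set. Of 100 such genes higher in *Myh11*-high cells, 100 in replicate 1 and 94 in replicate 2 were above the sum in the members. Relative to non-cycling *Myh11*-high cells, their median was -0.22 and -0.31 in members and -0.99 and -0.92 in the sum. Of 17 genes higher in *Myh11*-low cells, 15 and 17 were below the sum, with medians of 0.24 and 0.09 in members and 1.34 and 1.89 in the sum. For the G2/M list, the median relative to cycling *Myh11*-low cells was -0.10 and -0.08 in members and -0.85 and -0.91 in the sum, and for the S phase list it was -0.12 and -0.03, against -0.72 in both libraries. The contractile list was less far from the sum. Of its 30 genes 27 were above the sum and 3 below in each library, with medians of -0.29 and -0.46 in members and -0.71 and -0.79 in the sum relative to non-cycling *Myh11*-high cells. These are descriptions without a test, and the members and the reference sets are gated on *Myh11* and the cycle sum in the same cells. With cells above the summed medians left out of all 4 sets (15 and 23 of the members among them), 761 genes were called against non-cycling *Myh11*-high cells and 300 against cycling *Myh11*-low cells, compared with 727 and 227 for all members.

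Within the members, the contractile level was higher in bins with more *Myh11*, and the mitotic level was not lower there. In replicate 1, *Acta2* was at 8550 CPM in the 58 members with 5 to 9 UMIs of *Myh11*, at 12433 CPM in the 55 with 10 to 19 and at 17775 CPM in the 49 with 20 or more. In replicate 2 it was at 9632, 12442 and 15938 CPM in 168, 104 and 34 cells. The summed G2/M list was at 4659, 5154 and 5767 CPM over these bins in replicate 1 and at 5615, 5623 and 6608 CPM in replicate 2. The G2/M level was thus highest in the bin with the most *Myh11* in both libraries, by less than *Acta2* was, and these bins were not tested. The bins are of raw UMIs of the rule's own gene, which sets part of the order of *Acta2*. Their median depth was 30998, 32916 and 34441 UMIs in replicate 1 and 24546.5, 24047 and 26572 UMIs in replicate 2. Depth was thus also highest in the bin with the most *Myh11*, and its part in these levels was not tested. *Pdgfra* was at 128, 46.7 and 30.1 CPM over the same bins in replicate 1 and at 19.6, 19.1 and 18.1 CPM in replicate 2, so that in replicate 1 the members with little *Myh11* had the most *Pdgfra* and in replicate 2 the bins were alike (the difference between the libraries was not tested). *Acan*, the cartilage proteoglycan aggrecan, was at 17.9, 51.7 and 140 CPM in replicate 1 and at 8.11, 18.4 and 31.9 CPM in replicate 2. Over all members it was at 67.7 and 14.5 CPM, over non-cycling *Myh11*-high cells at 75.3 and 16.3 CPM, and over cycling *Myh11*-low cells at 0.442 and 0.451 CPM (6.51 ± 1.18 between the cycling sets, adjusted p = 0.0583 and 0.000527 with the block). Its level thus followed the *Myh11*-high sets and differed between the libraries. Of 20 matrix genes, 0 were called in either comparison. This is close to the shares of all genes, 5.01% higher and 0.426% lower against non-cycling *Myh11*-high cells and 1.4% and 0.291% against cycling *Myh11*-low cells. With the block, 3 were lower and 0 higher than in non-cycling *Myh11*-high cells (7.3% and 10% of all genes). The block called 6 higher and 4 lower than in cycling *Myh11*-low cells (8.31% and 8.59% of all genes). Among the higher ones were the elastic fibre gene *Eln* (2.75, adjusted p = 0.000262) and *Tnc*, tenascin C (2.20, adjusted p = 0.000211). Of 6 tested chondrocyte markers, *Acan* was above 0 and 5 were below 0 against cycling *Myh11*-low cells, with a median of -1.07. None was called without the block, beside 1.4% of all genes higher and 0.291% lower. With the block, beside 8.31% and 8.59% of all genes, *Acan* was higher and 3 were lower, *Sox9* (-0.86, adjusted p = 0.0145), *Col2a1* (-2.87, adjusted p = 0.0285) and *Col11a1* (-2.06, adjusted p = 0.0487). Further, of 6 tested pericyte markers 3 were above and 3 below 0 against cycling *Myh11*-low cells. Only *Cspg4* was called higher, beside 1.4% of all genes.

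Split by the cycle sum, the contractile level varied less. In replicate 1, the summed contractile list was at 37762 CPM in the 30 members with a cycle sum of 6 to 11, at 39477 CPM in the 30 with 12 to 23 and at 32914 CPM in the 102 with 24 or more. In replicate 2, it was at 29614, 28404 and 28741 CPM in 62, 82 and 162 cells. *Ccnb1* was at 56.6, 66.1 and 220 CPM in replicate 1 and at 38.8, 72.0 and 262 CPM in replicate 2 over these bins. The bins with the highest cycle sum were also the deepest, with medians of 37849 and 25930 UMIs.

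Of the defining markers of other cell types, *Pecam1*, *Cdh5* and *Ptprc* were at or near 0 in the members, whereas other genes of the endothelial, adventitial and pericyte lists were not. *Pecam1* of endothelial cells had 13 UMIs in the 162 members of replicate 1 and 5 in the 306 of replicate 2 (2.31 and 0.641 CPM), and *Cdh5* had 14 and 6. *Ptprc*, the pan-leukocyte marker, had 0 UMIs in both. The 10 endothelial markers summed to 88.8 and 49.1 CPM in members, most of it from *Eng* (61.1 and 34.6 CPM), against 117 and 134 CPM in cycling *Myh11*-low cells, and at least 1 UMI of the list was found in 71.6% and 58.5% of members. The 10 macrophage markers summed to 7.46 and 4.87 CPM in members, against 72.6 and 9.997 CPM in cycling *Myh11*-low cells. The 7 Schwann markers summed to 9.59 and 3.98 CPM, against 20.5 and 26.3 CPM. The 10 adventitial fibroblast markers summed to 405 and 107 CPM in members, with *Serpinf1* the most abundant (243 and 37.3 CPM), and to 616 and 479 CPM in cycling *Myh11*-low cells, and at least 1 UMI of the list was found in 74.1% and 52.3% of members. The 8 pericyte markers, of which VSMCs also express several, summed to 427 and 344 CPM, with *Pdgfrb* the most abundant in replicate 1 (163 CPM) and *Cspg4* in replicate 2 (113 CPM). The part of these markers in the differences between the sets was not tested. Of the genes of the endothelial, macrophage, Schwann and adventitial lists, 0 were called in either comparison. Of all genes, 5.01% were called higher and 0.426% lower than in non-cycling *Myh11*-high cells, and 1.4% and 0.291% against cycling *Myh11*-low cells. With the block 4 endothelial and 3 adventitial markers were lower than in cycling *Myh11*-low cells, beside 8.59% of all genes. Without cells with at least 2 UMIs of endothelial markers, 160 and 305 members remained, and 722 and 235 genes were called. In barcodes with at most 100 UMIs, which hold free RNA, *Myh11* was at 88.6 and 92.2 CPM, *Mki67* at 111 and 93.1 CPM and *Lum* at 87.3 and 138 CPM. *Lum* in the members, at 35.5 and 18.6 CPM, was below its level in free RNA. The level of *Myh11* in the members is set by the choice of the cells and was not compared. Free RNA was not removed.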

How the data were processed

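Primary VSMCs of 2 cultures were measured by single-cell RNA sequencing, 1 library each. The authors aligned the reads to mm10 with Cell Ranger, and the deposited matrices hold whole UMI counts for each barcode, not normalized. The submitters' processing notes give version 3.0.2, and the matrix header of replicate 2 gives 3.1.0. Barcodes with 300 or more genes, 3000 or more UMIs and less than 20% mitochondrial UMIs were kept, with no doublet or free RNA step. The sets and gene lists were chosen with earlier results of these data known. UMIs were summed by library and set and tested over all genes with edgeR 4.0.16 (TMM, quasi-likelihood test, Benjamini-Hochberg adjusted p under 0.05) in R 4.3.3, on 8 sums from 4 sets and 2 libraries, for 13383 genes that passed edgeR's filter on low counts. Sets of a library come from the same culture. The deviations of the same library from the means of the sets correlated in all 6 pairs of sets (0.543 to 0.816 across genes), so that the library number pairs the sums, and fits with it as a block were run as well. Without the block, the p-values measure the spread between 2 cultures and do not use this pairing. With the block, they measure the spread that is left among the sums after the difference between the libraries is removed. Other alternatives were DESeq2 1.42.0, other filters, gates and normalization, and leaving out a library. An alternative without cells with 2 or more UMIs of the endothelial genes *Pecam1*, *Cdh5*, *Cldn5* and *Emcn* was chosen after seeing the data. Named genes were the 5 with the largest fold change in each direction among those called, with the same direction in both libraries and 10 CPM or more in the higher set, up to 4 called genes of each list, and a set of genes always given (among them *Acta2*, *Myocd*, *Ccnb1*, *Lum* and the cGMP genes). Other genes were named after their values were seen. The scripts were tested on simulated data. Promoters are from RefSeq (GRCm38.p6). Some items that these rules select are not reported here.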

Additional observations from a re-analysis of the deposited data

How the results depend on the processing

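The number of genes called between members and cycling *Myh11*-low cells was 227 and depended most on the processing. With the library as a replicate block it was 2261, and the block ended no call of a named gene. It was 812 with DESeq2, 390 without the filter on low counts, 705 with a stricter gate (*Myh11* at least 10 and cycle sum at least 12) and 607 with the gate per 20000 UMIs. It was 229 without TMM. Between members and non-cycling *Myh11*-high cells, 727 genes were called, 2318 with the block, and between 676 and 1013 under the other alternatives. For the difference of the cycling effects, DESeq2 called 1 gene and each other alternative 0. The block reversed 1 named gene, *Pcna* against cycling *Myh11*-low cells, which was 0.0134 without the block and -0.0089 with it, -0.002 without TMM and -0.0151 without the filter. Against non-cycling *Myh11*-high cells, the difference of *Myocd* turned to 0.013 with the stricter gate and 0.15 with the gate per 20000 UMIs. *Npr2* turned to 0.009 without TMM, and *Gucy1b1* to 0.0789 without TMM, 0.0578 with the gate per 20000 UMIs and 0.0264 without cells above the summed medians. All of these were close to 0 and none passed the test, and the causes of these changes were not tested. Of the 38 named results in this comparison, *Rasl12* lost the call with the stricter gate, with the gate per 20000 UMIs and without cells above the summed medians (adjusted p of edgeR 0.0533 to 0.096), *Rmdn1* with the stricter gate and without TMM, *Btc* with the stricter gate and *Mapre3* without TMM, with the gate per 20000 UMIs and without cells above the summed medians. Leaving out a replicate gave *Myocd* -0.31 to 0.0379, *Cdkn1a* -0.23 to 0.50 and *Gucy1b1* -0.0622 to 0.02 against non-cycling *Myh11*-high cells, and *Pcna* -0.20 to 0.14 and *Cdkn1a* -0.19 to 0.41 against cycling *Myh11*-low cells. The sizes of named differences moved by more than 1 SE of the fit in 15 of 32 results against cycling *Myh11*-low cells without replicate 1 and in 9 without replicate 2. Against non-cycling *Myh11*-high cells, 9 of 38 moved in this way without replicate 1 and 14 without replicate 2. Counts of calls without a replicate were not run, because no residual degrees of freedom are left. The members were 3.91% of the cells as the mean of both libraries, 1.71% with the stricter gate and 3.33 to 4.48% with a replicate left out. The size of difference that 2 libraries can detect was not measured, so a gene that was not called may still differ between the sets.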
